A study of Mus musculus with 17 samples.

Results

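The genes described are 35 mouse genes of glycolysis, lactate handling and the hypoxia response, out of 43629 genes in a table of read counts from 17 RNA-seq libraries. They were chosen by symbol and by known function. They comprise 2 glucose transporters, 15 glycolytic enzymes, 4 genes of lactate handling, 3 regulators, 9 targets of hypoxia that carry out no step of glycolysis (called hypoxia-only targets here) and the genes of 2 subunits of the hypoxia-inducible factors. All 35 passed the filter on low counts, which left 22671 genes for testing.

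The study followed ID8 cells, a line from mouse ovarian surface epithelium used as a model of ovarian carcinoma, from culture into several sites in the mouse. The cell line was grown in DMEM with serum and gave 1 library. Orthotopic tumours, from cells injected under the bursa of the right ovary, gave 3 libraries. Subcutaneous tumours (the flank in the protocol, the scruff in the sample labels) gave 2 libraries, numbered 2 and 3. Peritoneal ascites that formed in orthotopic animals was drawn by syringe in succession, and the first and second taps gave 3 libraries each. Metastatic tumours on the intestine gave 3 libraries, and healthy ovary and intestine of the C57BL6 strain gave 1 library each with no treatment. The labels give no age, no genotype beyond "WT" for the line and the healthy tissues, and no statement of which samples came from 1 animal. P-values therefore measure the spread between these samples, which may in part be technical.

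Glycolysis breaks glucose down to pyruvate in the cytosol, and when oxygen is short or demand is high the pyruvate is reduced to lactate and exported. In low oxygen the alpha subunits HIF-1α (gene Hif1a) and HIF-2α (Epas1) escape degradation, pair with a constant partner and bind hypoxia response elements, short sequences built on the core RCGTG. Many glycolytic genes carry such elements, as do genes for pH control, collagen hydroxylation and mitophagy, so enzymes and hypoxia-only targets are often read side by side in tumours.

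The core was searched as ACGTG or GCGTG on both strands in the 250 bases before the gene start in RefSeq (assembly GRCm38.p6); CACGTG, which holds the core on each strand in overlap, was counted on both. A promoter was listed for 32 of the 35 genes, and Slc2a3, Ndrg1 and Epas1 had none. The core was present in 25 of the 32, or 78.1%, against 38.6% of 27025 promoters of the same length, 1 per gene. Those of 1 chromosome were left out of the 27025. It was present in 9 of 15 enzyme promoters (60%) and in 7 of 8 hypoxia-only promoters (87.5%). Only the first start listed for a gene was searched. Some enzymes had more (Hk1, Aldoc and Pkm 2, Aldoa and Eno1 3, Pfkm 4). Each hypoxia-only gene with a promoter had 1, so the 2 shares do not rest on like searches. The members' promoters had a median GC content of 61% and the 27025 promoters one of 52%. It was 55.6% for enzymes and 63.4% for hypoxia-only targets. GC content was not adjusted for. Of the 32 starts, 25 could be located in the annotated transcript. A match describes these letters only and is not evidence of binding. The following 4 windows are shown for these reasons. P4ha1 and Pfkfb4 were the only members with a listed promoter that differed among sites. Bnip3, with Ldha, held the most matches (5 each). Aldoa, the enzyme gene with the highest level per length, held none at the first of its 3 listed starts. Capitals mark the core on either strand.
P4ha1 (chr10:59323046-59323295, plus strand): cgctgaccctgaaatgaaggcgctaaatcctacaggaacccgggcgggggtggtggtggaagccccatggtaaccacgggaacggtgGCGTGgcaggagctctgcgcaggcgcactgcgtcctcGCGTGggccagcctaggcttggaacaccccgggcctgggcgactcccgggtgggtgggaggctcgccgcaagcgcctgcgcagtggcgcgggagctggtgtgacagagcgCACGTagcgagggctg
Pfkfb4 (chr9:108991652-108991901, plus strand): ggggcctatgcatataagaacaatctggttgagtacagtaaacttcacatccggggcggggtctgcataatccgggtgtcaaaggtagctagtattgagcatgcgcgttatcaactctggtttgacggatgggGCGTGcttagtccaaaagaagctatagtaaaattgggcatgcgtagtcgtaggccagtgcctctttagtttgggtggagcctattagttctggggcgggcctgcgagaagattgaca
Bnip3 (chr7:138909507-138909756, minus strand): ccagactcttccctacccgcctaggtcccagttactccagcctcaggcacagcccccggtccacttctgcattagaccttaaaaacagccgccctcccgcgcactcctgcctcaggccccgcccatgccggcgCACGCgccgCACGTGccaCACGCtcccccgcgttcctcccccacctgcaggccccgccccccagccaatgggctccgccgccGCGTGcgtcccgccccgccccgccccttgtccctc
Aldoa (chr7:126800448-126800697, minus strand): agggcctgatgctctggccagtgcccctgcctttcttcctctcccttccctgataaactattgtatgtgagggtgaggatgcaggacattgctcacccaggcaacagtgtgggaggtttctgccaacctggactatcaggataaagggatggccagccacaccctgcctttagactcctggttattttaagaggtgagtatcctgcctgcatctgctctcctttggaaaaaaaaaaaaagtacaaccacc

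Libraries held 12031221 to 38902048 counts, and levels are given as CPM, the usual count scaled to library size, here after TMM scaling. Between 21157 and 26838 genes had a count, except in subcutaneous library 3 (33393), first-tap library 3 (32846) and second-tap library 1 (32775). Host cells contributed to the solid and ascites samples in different ways. Of 8 intestinal epithelial markers, 7 were higher in every intestinal tumour library than in every other tumour or ascites library, with a mean log2(CPM + 1) over the list of 7.79 to 9.55, against 9.18 in healthy intestine and at most 2.19 elsewhere. The transcription factor genes Cdx1 and Cdx2 were both at 0 in the cell line, orthotopic library 2, subcutaneous library 2, first-tap libraries 1 and 2 and second-tap libraries 2 and 3. The ovarian surface marker list, typical of the origin of ID8 cells, was at 5.30, 6.27 and 6.55 in intestinal tumours. It was at 5.61 to 7.12 in orthotopic tumours and 4.66 in healthy intestine. On that list, Wt1 was at 17.8, 78.5 and 199 CPM in intestinal and 345 to 625 in orthotopic tumours. Krt7 and Krt8 were higher in intestinal tumours. In intestinal tumour 1, Upk3b (6.93) and Lrrn4 (7.56) lay below healthy intestine (16.6 and 8.93), and the other listed genes above it. All 8 macrophage markers were higher in every ascites library than in every orthotopic tumour (list means 7.01 to 9.89 against 4.72 to 5.33; 0.461 in the line, where Adgre1, Mrc1, C1qa, C1qb and Itgam were at 0). All 6 endothelial markers were lower in every ascites library than in every orthotopic tumour (1.65 to 2.44 against 4.67 to 5.48; 6.39 and 5.33 in the subcutaneous tumours; 0.18 in the line, where Cdh5, Kdr and Emcn were at 0). In bulk samples, fewer cells of a type and less RNA per cell cannot be told apart. The part of these host cells, or of the share of ID8 cells, in the results below was not tested, except where a value is given.

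The library names in the labels carry the prefix S, SM or SCT, and what a prefix marks is not stated. The 5 libraries named S are the cell line, orthotopic 1, first-tap 1, second-tap 2 and intestinal tumour 1. The 10 named SM are the other orthotopic, ascites and intestinal tumour libraries and both healthy tissues, and both subcutaneous libraries are named SCT, so that SCT and the subcutaneous site cannot be told apart. Within the 4 groups that hold both S and SM, 30 of 35 members were higher in S, with a median log2 difference of 0.69, while 37.1% of all genes were higher and their median was −0.19. With library-total scaling in place of TMM, 27 of 35 were higher (median 0.57 against −0.34). The 15 enzymes were all higher in S, and 8 of the 9 hypoxia-only targets were, with medians of 0.77 and 1.26; under library totals these counts were 13 and 8. No gene passed the adjusted threshold in this contrast (0 members; 0% of all genes). At an unadjusted p under 0.05 there were 14 members and 8.4% of genes, and DESeq2 called 3 members and 0.641% of genes. Those 3 were Slc2a1 (log2 difference 2.09, adjusted p = 0.00992), Pfkl (0.98, 0.0202) and Car12 (2.27, 0.00421). The single S library was the highest of its group in all 4 groups for Hk1, Pfkl, Aldoa, Car12 and Epas1, which is 5 of 35 members (14.3%) against 2.14% of genes. The comparisons among orthotopic tumours, ascites and intestinal tumours below are therefore also given with the prefix in the model, which was not fitted for the joint test or for subcutaneous tumours.

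**Figure D1:**
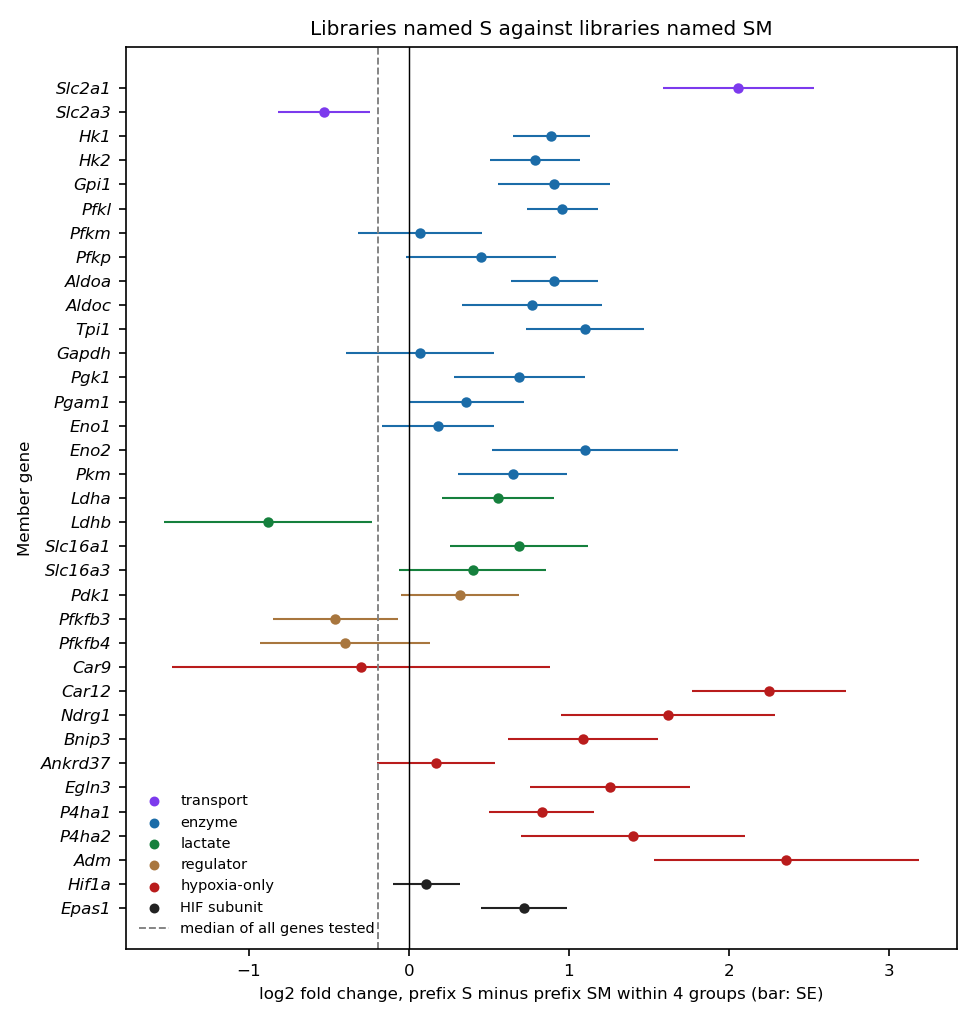
Log2 fold change of each member between libraries whose name begins with S and those whose name begins with SM, within the orthotopic, first-tap, second-tap and intestinal tumour groups; points are estimates, bars are 1 SE, colours are gene roles, and the dashed line is the median of all genes tested (−0.19). Points lie right of 0 for 30 of 35 members, and all 15 enzymes are among them.

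The spread between libraries of the same group was wide for these genes. The SD of log2(CPM + 1) within groups had a median of 0.77 over the 35 members and 0.43 over all genes tested (0.47 over those with a mean of at least 10 CPM). It was 0.72 for enzymes and 1.23 for hypoxia-only targets. Car12 (1.64), Ndrg1 (1.60) and Car9 (1.56) had the widest spread within groups, and Hif1a (0.28) and Ankrd37 (0.31) the narrowest. Ankrd37 lay at 0.583 to 3.00 CPM, where the added 1 narrows the SD, and its highest library was 5.14 times its lowest. This spread bears on each test below.

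**Figure D2:**
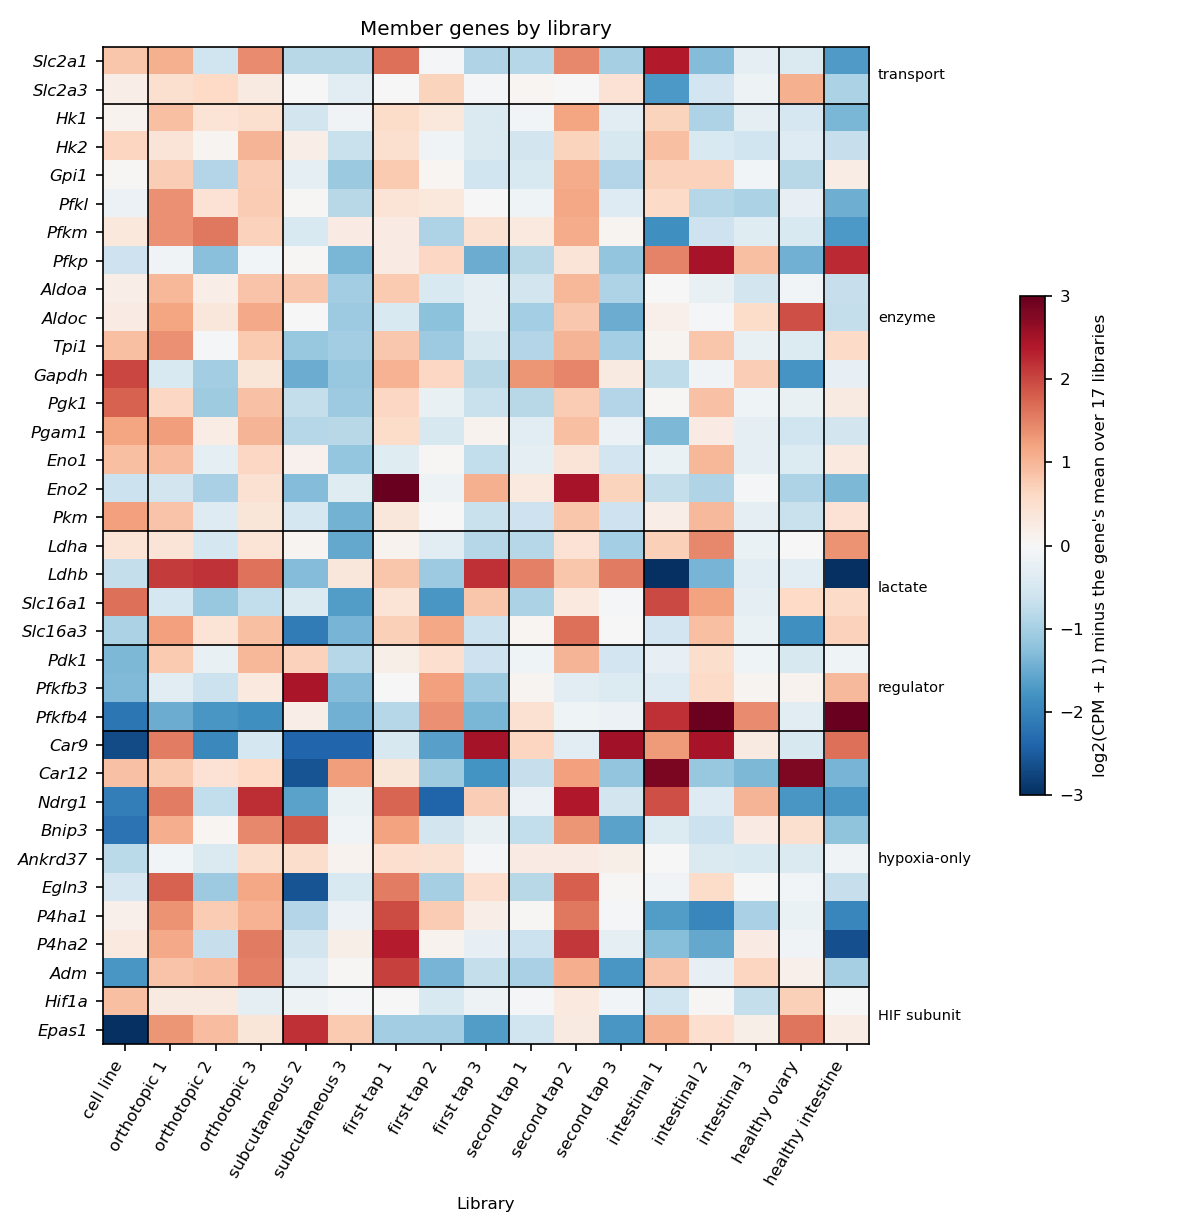
Level of each member (rows, ordered by role) in each library (columns, ordered by group), as log2(CPM + 1) minus that gene's mean over the 17 libraries; red is higher and blue lower. Orthotopic 1 and 3, first-tap 1 and second-tap 2 are red over most enzymes and hypoxia-only targets, and intestinal tumours are high at Pfkp and Pfkfb4 and low at Pfkm, Ldhb and P4ha1.

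Across the 5 replicated groups (orthotopic, subcutaneous, both taps and intestinal tumour), 3 of 35 members differed by site in a joint edgeR quasi-likelihood test with Benjamini-Hochberg adjustment over all genes, or 8.57%, against 17% of all genes. The 2 shares were not compared by a test. The 3 were Pfkfb4, a bifunctional enzyme that sets the level of the phosphofructokinase activator fructose 2,6-bisphosphate (adjusted p = 0.0116), Epas1 (0.0182) and P4ha1, a collagen prolyl hydroxylase subunit (0.0252). Without the intestinal tumours the joint test called 0 members, with adjusted p of 0.342, 0.0656 and 0.367 in the same order, and without the subcutaneous tumours it called 5. The share of all genes called without either group is not given here. DESeq2 called 10 members in the joint test, where it called 35.8% of all genes. Leaving out each of the 14 libraries in turn, Epas1 passed in all 14 fits, Pfkfb4 in 13 (adjusted p = 0.072 without intestinal tumour 2) and P4ha1 in 9 (0.0503 to 0.0989 without any 1 of orthotopic 1, 2 or 3 or intestinal tumour 1 or 2). None of the 15 core glycolytic enzymes and neither glucose transporter passed the joint test with edgeR.

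Among the glucose transporters, Slc2a1 (GLUT1, the broadly expressed carrier) was at 120 CPM in the line. It was at 140, 43.4 and 181 in orthotopic tumours, 37.2 and 36.9 in the subcutaneous ones, 210, 64.1 and 35.4 in the first tap, 36.6, 184 and 32.9 in the second, and 354, 26.4 and 54.3 in intestinal tumours. Each replicated group other than the subcutaneous one thus ran from low to high, and in 3 of the 4 the S library was the highest; in the orthotopic group library 3, an SM library, was. Slc2a3 (GLUT3, a high-affinity carrier) was steadier, at 25.1 to 32.0 CPM in orthotopic tumours and 5.56, 13.8 and 18.8 in intestinal tumours. The latter did not overlap the former, but the difference missed the threshold (log2 fold change −1.18 ± 0.39 SE, adjusted p = 0.0621).

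The abundant enzymes gave the highest levels per length. On the scale of CPM per kilobase of exon (GENCODE M21), the median over 17 libraries was 233 for Aldoa (aldolase A), 132 for Tpi1 (triosephosphate isomerase), 131 for Pkm (pyruvate kinase), 112 for Eno1 (enolase 1) and 83.3 for Gpi1 (glucose-6-phosphate isomerase). Pgam1 (phosphoglycerate mutase, 59.9) and Pgk1 (phosphoglycerate kinase, 54.8) followed. Hexokinases were lower, with 19.5 for Hk2 and 7.70 for Hk1. The isoforms typical of brain were lowest, at 2.45 for Aldoc and 1.48 for Eno2. Neighbours in this order such as Tpi1 and Pkm did not differ beyond their spread over libraries, which was 62.2 to 360 and 48.1 to 306.

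Of the 15 enzymes, only Pfkp, Pfkm and Gapdh passed in any comparison, and levels of the abundant ones ranged widely within sites. Aldoa was at 828 CPM in the line, 1439, 830 and 1300 in orthotopic tumours, 1262 and 347 in the subcutaneous ones, 1233, 526 and 590 in the first tap, 490, 1436 and 376 in the second, and 725, 613 and 494 in intestinal tumours. Pkm was at 1531 in the line, 1166, 491 and 831 in orthotopic tumours, 450 and 241 in the subcutaneous ones, 817, 653 and 405 in the first tap, 418, 1146 and 421 in the second, and 739, 1270 and 536 in intestinal tumours. At Pkm the orthotopic, ascites and intestinal groups overlap. At Aldoa ascites overlaps both of the others, and every intestinal tumour lay below every orthotopic tumour, a difference that did not pass (−0.96 ± 0.59, adjusted p = 0.284). Hk2, which binds mitochondria and is often raised in tumours, had the narrowest range of all enzymes, with a highest library 3.31 times the lowest.

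The 3 phosphofructokinase genes, which encode the liver (Pfkl), muscle (Pfkm) and platelet (Pfkp) subunits of the enzyme at the committed step, differed in how they varied by site. Pfkp was at 60.9, 27.0 and 62.2 CPM in orthotopic tumours and at 186, 370 and 124 in intestinal tumours, and the groups did not overlap. The log2 fold change was 2.18 ± 0.67 (adjusted p = 0.0454) against orthotopic tumours and 1.95 ± 0.53 (0.0242) against both taps. Pfkm was at 81.8, 93.7 and 50.8 in orthotopic tumours and 7.87, 19.8 and 23.6 in intestinal tumours, again without overlap (−2.14 ± 0.50, adjusted p = 0.0166). Orthotopic library 2, the highest at Pfkm, also had the highest skeletal muscle marker level (6.04, against 0.443 and 0.305 in orthotopic 1 and 3). The part of muscle RNA in its Pfkm level was not tested. Pfkl went from 232, 121 and 151 to 133, 48.8 and 45.7, with overlap (−1.15 ± 0.51, adjusted p = 0.142). The mean log2 ratio of Pfkp to Pfkl was 1.60 ± 1.22 (SD, n = 3) in intestinal tumours and between −1.77 and −0.70 in the other replicated groups. Healthy intestine held Pfkp at 316 CPM, Pfkl at 31.8 and Pfkm at 8.68. The means of the intestinal tumours lay towards healthy intestine at all 3 genes, beside the epithelial marker levels given above. At Pfkl, intestinal tumour 1 (133 CPM) lay within the orthotopic range. That library is named S and had the highest epithelial list level (9.55). The Pfkp difference from orthotopic tumours passed in 1 of the 6 fits that left out a library of either group, the one without intestinal tumour 3, and was 1.55 without intestinal tumour 2. The Pfkm difference passed in 2 of 6, those without orthotopic 3 or intestinal tumour 3.

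Gapdh was counted in part at its copies. Its longest coding sequence matched 78 other annotated genes, called near-identical copies here (at least 95% identity over at least 300 bases). Of these, 72 were among the counted genes. Over all libraries 83.2% of the counts of Gapdh and these copies together were assigned to copies. A single one, Gm5559, held 167176 counts, against 34405 for Gapdh. The share assigned to Gapdh itself ran from 5.80% in orthotopic library 1 to 36% across libraries. Gapdh alone was at 198 CPM in the line and 16.6 and 21.4 in subcutaneous tumours (log2 fold change −3.38 ± 0.80, adjusted p = 0.0254). Leaving out either subcutaneous library ended this call. With the copies added, the line was at 1050 and the subcutaneous tumours at 81.3 and 63.0 (−3.86 ± 0.74, adjusted p = 0.0147), and subcutaneous tumours were also below both taps (−2.38 ± 0.59, adjusted p = 0.0332). Between ascites and orthotopic tumours the copies turned the sign, from 1.07 (adjusted p = 0.231) to −0.46 (0.554), and the sign also turned between intestinal and orthotopic tumours (0.35 to −1.07) and between intestinal tumours and healthy intestine (0.33 to −0.46). Gapdh alone gives an uncertain direction in these 3 comparisons. Against the line, intestinal tumours were lower with the copies added (−2.09 ± 0.65, adjusted p = 0.0493) and did not pass at Gapdh alone (0.0827). Of the other members, 9 had copies, and none had over 10% of counts there.

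**Figure D3:**
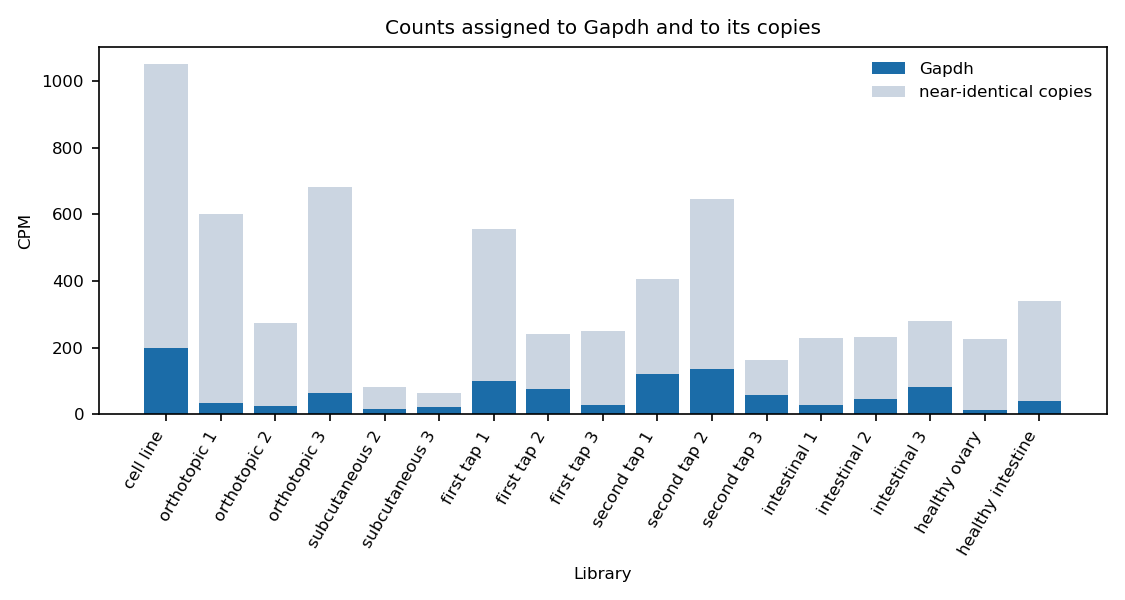
CPM assigned to Gapdh (blue) and to its near-identical copies (grey) in each library, stacked. The copies take the larger part of every bar, and the 2 subcutaneous libraries have the lowest totals, 81.3 and 63.0 CPM.

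Lactate dehydrogenase is built from A subunits (Ldha, which favour lactate formation) and B subunits (Ldhb). Ldhb was at 51.6 CPM in the line, 373, 389 and 267 in orthotopic tumours, 34.0 and 108 in the subcutaneous ones, 153, 39.7 and 393 in the first tap and 247, 154 and 254 in the second. In intestinal tumours it was at 4.72, 31.9 and 67.3, all below every orthotopic tumour (−3.30 ± 0.92, adjusted p = 0.0318). This passed in 1 of the 6 fits that left out a library, the one without intestinal tumour 3, with values from −4.30 to −2.82. Ldha was at 336, 176 and 341 in orthotopic and 422, 694 and 221 in intestinal tumours, which overlap. The mean log2 ratio of Ldha to Ldhb was 4.10 ± 2.27 (SD, n = 3) in intestinal tumours and −0.31 ± 0.76 (n = 3) in orthotopic tumours. Healthy intestine, with Ldha at 654 CPM and Ldhb at 4.42, gave a ratio of 6.92, and the cell line one of 2.70. By Ldhb and by Pfkm, both lowest in library 1, the intestinal tumours ran opposite to the epithelial marker list (9.55, 9.13 and 7.79). Pfkp and Pfkfb4 were highest, and P4ha1 lowest, in library 2. On that list Vil1, Fabp2 and Apoa4 were highest in library 2 and the other markers in library 1. The part of epithelial RNA in these values was not tested.

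The monocarboxylate transporters export or import lactate. Slc16a3 (MCT4, an exporter) was at 86.9, 48.5 and 68.4 CPM in orthotopic tumours and 7.69 and 13.1 in subcutaneous tumours. The groups were far apart, but the difference missed the threshold over all genes (−2.71 ± 0.73, adjusted p = 0.0927), as did that from both taps (−2.51 ± 0.69, adjusted p = 0.0504). Slc16a1 (MCT1) was at 261 in the line, at 57.3, 37.0 and 49.6 in orthotopic tumours and at 331, 191 and 68.7 in intestinal tumours (2.04 ± 0.68 against orthotopic, adjusted p = 0.0621). The mean log2 ratio of Slc16a3 to Slc16a1 was 0.48 ± 0.11 (SD, n = 3) in orthotopic tumours, the only group with a mean above 0, and −3.76 in the line.

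Of the 3 regulators, Pfkfb4 differed among sites. It was at 2.70 CPM in the line, 4.96, 3.96 and 3.66 in orthotopic tumours, 18.1 and 5.15 in the subcutaneous ones, 8.27, 42.1 and 5.47 in the first tap, 22.1, 14.4 and 13.7 in the second, and 75.3, 127 and 43.3 in intestinal tumours. The intestinal tumours were above every other tumour and ascites library (43.3 against 42.1 at the closest), and lay 4.29 ± 0.80 on the log2 scale above orthotopic tumours (adjusted p = 0.00521) and 2.21 ± 0.58 above both taps (0.0201). The first passed in all 6 fits that left out a library, and the second in 7 of 9 (adjusted p = 0.0511 and 0.131 without intestinal tumour 1 or 2). Healthy intestine held 129 CPM and healthy ovary 12.3. Pfkfb3, the isoform of the same family with the highest kinase activity, was at 443 CPM in subcutaneous library 2 and 31.5 in subcutaneous library 3, and at 36.6 to 189 CPM in the other tumour and ascites libraries. Subcutaneous library 2 also had the highest adipocyte marker level (9.21, against 7.21 in healthy ovary and at most 5.66 elsewhere) and the highest B cell marker level (7.74). Pdk1, a kinase that holds pyruvate back from the mitochondrion, was at 28.9 in the line and 41.3 to 155 in tumours and ascites, and passed in no comparison.

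The hypoxia-only targets ranged widely between libraries of the same site. Car9 (carbonic anhydrase 9, which buffers pH at the cell surface) was at 1.14 CPM in the line, 39, 2.59 and 8.58 in orthotopic tumours, 1.65 and 1.67 in the subcutaneous ones, 8.90, 3.44 and 77.2 in the first tap, 20.4, 10.0 and 77.5 in the second, and 32.6, 75.5 and 15.7 in intestinal tumours. Ndrg1, a stress-induced gene used as a hypoxia marker, was at 38.2 in the line and at 481, 97.2 and 769 in orthotopic tumours. It was at 53.5 and 142 in subcutaneous tumours, 554, 30.1 and 276 in the first tap, 146, 875 and 112 in the second, and 634, 125 and 335 in intestinal tumours. All groups of tumours and ascites overlap at Ndrg1. At Car9 the 2 subcutaneous libraries lie below every other tumour and ascites library, and the remaining groups overlap. Healthy intestine, with no tumour, held Car9 at 42.2 CPM.

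P4ha1 was the only hypoxia-only target that differed among sites. It was at 123, 81.5 and 99.8 CPM in orthotopic tumours, 25.4 and 42.0 in the subcutaneous ones, 189, 82.4 and 55.2 in the first tap, 48.9, 145 and 46.4 in the second, and 14.2, 11.7 and 24.0 in intestinal tumours. The intestinal tumours lay below every other tumour and ascites library, by −2.61 ± 0.57 against orthotopic tumours (adjusted p = 0.0113) and −2.49 ± 0.53 against both taps (0.00618). The first of these passed in 5 of 6 fits that left out a library (adjusted p = 0.0545 without intestinal tumour 2) and the second in all 9. Healthy intestine held 11.7 CPM, and the promoter window of P4ha1 printed above holds 3 matches to the core. P4ha2, the paralogous subunit, was at 25.2, 6.38 and 34.3 in orthotopic and 3.89, 3.14 and 13.2 in intestinal tumours, with overlap.

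The remaining targets passed in no comparison. Bnip3, which drives mitophagy and holds as many core matches as Ldha, was at 10.7 CPM in the line and at 16.9 to 197 in tumours and ascites. Egln3, the oxygen-sensing prolyl hydroxylase that is itself induced in hypoxia, was at 250, 34.0 and 164 in orthotopic tumours and 11.4 and 53.2 in subcutaneous tumours. Car12, a second cell-surface carbonic anhydrase, was at 4.91 and 85.0 in the 2 subcutaneous libraries and at 251, 15.4 and 13.1 in intestinal tumours. Adm, the vasodilator adrenomedullin, had the widest range of any member, with a highest library 112 times the lowest, and stood at 0.132 CPM in the line. Ankrd37 was low throughout, at 0.583 to 3.00 CPM.

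Enzymes and hypoxia-only targets were compared as the mean log2(CPM + 1) over each list within a library. The cell line stood apart, with an enzyme level of 7.40, close to that of the highest tumour libraries, and a hypoxia-only level of 3.57, close to the lowest; the difference was 3.82. In the other 16 libraries it was between 1.64 (subcutaneous 3) and 3.00 (healthy intestine). Group means were 2.1 for orthotopic, 2.25 for subcutaneous, 2.13 for first-tap, 2.16 for second-tap and 2.34 for intestinal tumour libraries, and the ranges of all 5 groups overlap. With 1 library of the line, the gap to the tumours has no replicate check on the line's side.

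The fold changes from the line give the same values gene by gene and are not a second line of support. Of the 15 enzymes, 8 were higher in orthotopic tumours than in the line, with a median log2 fold change of 0.23, equal within 0.01 to the median of all genes (0.24). Of the 9 hypoxia-only targets, 8 were higher, with a median of 1.69. In ascites the medians were −0.63 for enzymes and 2.00 for hypoxia-only targets (all genes 0.56), and in intestinal tumours −0.52 and 1.13 (0.41). In subcutaneous tumours they were −0.78 and 0.54 (0.60), so that there the hypoxia-only targets did not lie above all genes. These 4 comparisons share the 1 library of the line, which is named S. Within the groups that hold both prefixes, all 15 enzymes and 8 of the 9 hypoxia-only targets were higher in S. The part of the prefix in these medians and in the line's list levels was not tested. With library totals, Hk2 and Tpi1 changed sign in orthotopic tumours, Pfkm in ascites and Pfkl, Aldoa and Eno2 in subcutaneous tumours. No hypoxia-only target passed the threshold in any of them, and among enzymes only Gapdh did, in subcutaneous tumours (with its copies added, in intestinal tumours too).

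**Figure D4:**
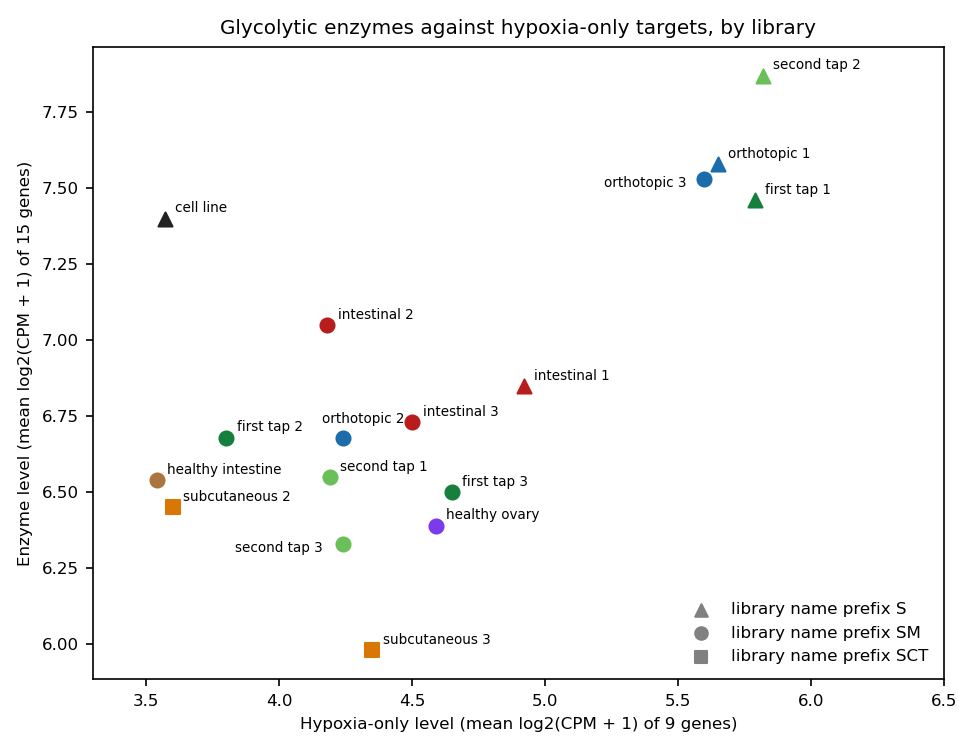
Mean log2(CPM + 1) of the 15 enzymes (vertical) against that of the 9 hypoxia-only targets (horizontal), 1 point per library; colours are groups and shapes the prefix of the library name. The cell line lies at 7.40 and 3.57, apart from the tumours, and orthotopic 1 and 3, first-tap 1 and second-tap 2 lie together at the upper right, 3 of them named S.

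Within the tumours and ascites the libraries highest in 1 list were also highest in the other. Orthotopic 1 and 3, first-tap 1 and second-tap 2 had the 4 highest values of both, 7.46 to 7.87 for enzymes (the line lay at 7.40) and 5.60 to 5.82 for hypoxia-only targets. The other 10 tumour and ascites libraries were at 5.98 to 7.05 and 3.60 to 4.92. Each of the orthotopic, first-tap and second-tap groups thus held libraries on both sides. The 2 lists share library, depth and scaling, so this is a description of 17 libraries and not a test.

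The genes of the HIF alpha subunits behaved differently from each other. Hif1a was at 358 CPM in the line, 231, 229 and 159 in orthotopic tumours, 172 and 186 in the subcutaneous ones, 190, 138 and 173 in the first tap, 185, 234 and 181 in the second, and 126, 194 and 116 in intestinal tumours. It had the narrowest range of any member, 3.10 times from lowest to highest library, and was lower in intestinal tumours than in the line (−1.30 ± 0.36, adjusted p = 0.033; 0.0636 without intestinal tumour 1 and 0.0601 with the library-name prefix as a covariate). Hif1a protein is controlled mainly by degradation, which RNA levels do not show.

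Epas1 was at 9.48 CPM in the line, 266, 201 and 137 in orthotopic tumours, 491 and 184 in the subcutaneous ones, 51.4, 51.0 and 32.5 in the first tap, 69.4, 129 and 31.2 in the second, and 222, 150 and 121 in intestinal tumours. Every ascites library was below every orthotopic and subcutaneous tumour, and the line was lowest of all. Ascites was lower than orthotopic tumours by −1.78 ± 0.42 (adjusted p = 0.0357), and subcutaneous tumours were higher than ascites by 2.53 ± 0.46 (0.00831). Against the line, Epas1 was higher by 4.41 ± 0.95 in orthotopic (adjusted p = 0.0321), 5.15 ± 1.01 in subcutaneous (0.0155) and 4.11 in intestinal tumours (0.0167). In ascites it was 2.63 ± 0.83 higher (0.0807). The difference of ascites from orthotopic tumours passed in 6 of 9 fits that left out a library (adjusted p = 0.163, 0.102 and 0.0571 without orthotopic 1, orthotopic 2 or second-tap 1), and that of orthotopic tumours from the line in 1 of 3 (0.064 and 0.0604 without orthotopic 1 or 2). Epas1 is known as a gene of endothelial cells, and the endothelial marker list ran from 0.18 in the line through 1.65 to 2.44 in ascites to 4.26 and above in every solid tumour. The part of endothelial RNA in the Epas1 differences was not tested.

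**Figure D5:**
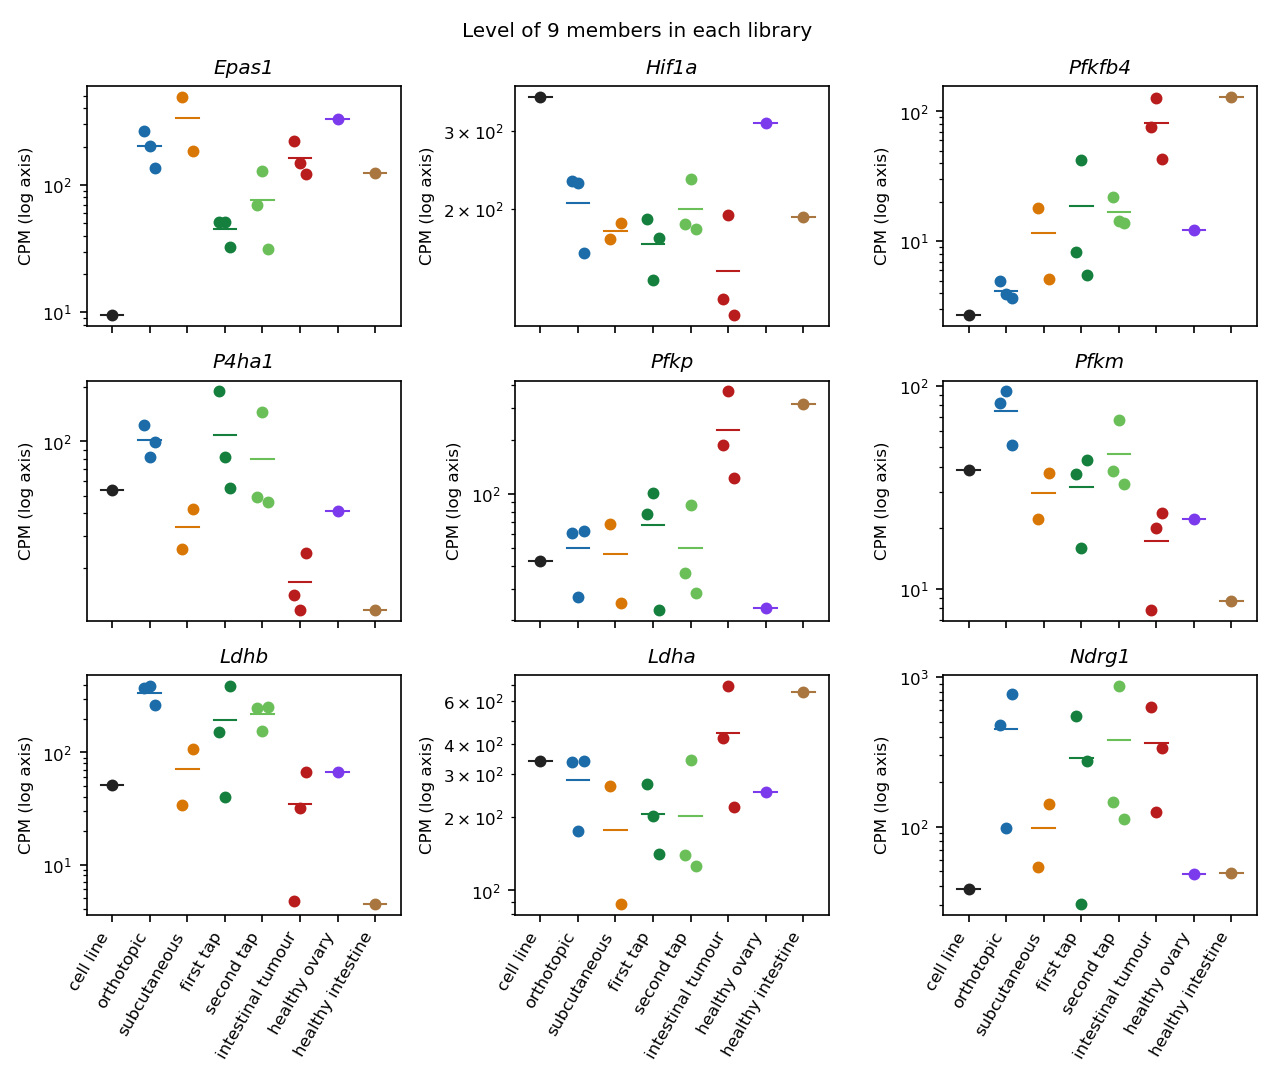
CPM of 9 members (log axis) by group, 1 point per library, with a line at the group mean. Epas1 is lowest in the cell line and lower in ascites than in orthotopic tumours, intestinal tumours are high for Pfkfb4 and Pfkp and low for P4ha1, Pfkm and Ldhb as healthy intestine is, and Ndrg1 spreads widely within each site.

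By comparison, ascites of both taps differed from orthotopic tumours at 1 of 35 members, Epas1, against 4.51% of all genes. The members' median log2 fold change was −0.38 and that of all genes 0.15. Within the SM libraries alone the Epas1 difference was −1.93 and no longer passed (adjusted p = 0.0906), and with the prefix as a covariate it was −1.95 (0.0063). The second tap did not differ from the first at any member, and 0% of all genes passed. At an unadjusted p under 0.05 there were 0 members and 0.64% of genes, and DESeq2 called 0 members and 0.00443% of genes.

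Intestinal tumours differed from orthotopic tumours at 5 members, or 14.3%, against 15.5% of genes. Pfkfb4 and Pfkp were higher (10.4% of genes were) and Pfkm, Ldhb and P4ha1 lower (5.13% of genes). With library totals 1 was higher and 6 lower, and Pfkp no longer passed (1.76, adjusted p = 0.0567). Without the filter on low counts 3 passed, and Pfkp (0.077) and Ldhb (0.0775) did not. With the prefix as a covariate, 7 members passed, and these 5 kept their direction and their call. Among SM libraries alone, with 2 per group, 2 passed; the 5 kept their direction, but only P4ha1 still passed (−2.39, adjusted p = 0.0438). Against both taps, intestinal tumours differed at 4 members (18.3% of genes): Pfkp, Pfkfb4 and Epas1 were higher (12.4%) and P4ha1 lower (5.85%). The Epas1 difference was 1.49 ± 0.42 (adjusted p = 0.0297), the groups overlap, and it passed in 5 of 9 fits that left out a library (0.052 to 0.127 without first-tap 3, second-tap 1 or intestinal tumour 1 or 2). That of Pfkp passed in 7 of 9 (0.0538 and 0.162 without second-tap 1 or intestinal tumour 2). With the prefix as a covariate 6 members passed, 4 higher and 2 lower, and these 4 were among them. Among SM libraries none of these 4 passed, with adjusted p from 0.0512 to 0.159. The shares of all genes called with library totals, no filter, the prefix covariate or SM libraries alone are not given here. Member counts from those fits are therefore not a result about the members. In healthy intestine all 5 members called against orthotopic tumours lay on the side of the intestinal tumours. The share of all called genes that did so was not counted, so this cannot be read as particular to the members. Intestinal tumours and healthy intestine differed at 0 members and 0% of genes, with 0 members and 2.58% of genes at an unadjusted p under 0.05, and DESeq2 called 0 members and 0.242% of genes. That comparison rests on 1 healthy library and does not show that the tissues are alike.

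Subcutaneous tumours differed from orthotopic tumours at 0 members by edgeR, where 0.0132% of genes passed. At an unadjusted p under 0.05 there were 7 members and 20.7% of genes, and DESeq2 called 2 members and 10.1% of genes. In 15 of 35 members both subcutaneous libraries were below all 3 orthotopic libraries, as were 18.1% of genes, and in 1 member they were above (23% of genes). The median log2 fold change was −1.01 for members and 0.25 for all genes, and all 15 enzymes had a value below 0. The ovarian surface marker list, typical of the origin of ID8 cells, was at 3.43 and 5.67 in subcutaneous libraries 2 and 3 and 5.61 to 7.12 in orthotopic tumours. In library 2, Upk3b (3.78 CPM), Msln (0.434), Wt1 (23.0) and Lrrn4 (5.99) of that list lay below every orthotopic tumour. Krt8 and Krt18 did too, and Krt7 (14.7) lay within the orthotopic range. The keratinocyte list was at 2.59 and 5.75 in subcutaneous libraries 2 and 3 against 1.29 to 1.45 in orthotopic tumours. The part of these differences in cell content in the members' values was not tested. With library totals the medians were −0.95 and 0.35, and Car12 alone changed sign. Leaving out subcutaneous library 3, together with the other 2 libraries of many detected genes, gave 1 member past the threshold. Against both taps, 1 member differed, Epas1 (6.32% of genes), and with Gapdh counted together with its copies there were 2. Without subcutaneous library 2 the Epas1 difference was 1.72 and no longer passed. Intestinal and subcutaneous tumours differed at 0 members (4.4% of genes), with 6 members and 22.6% of genes at an unadjusted p under 0.05 and 5 members and 14.5% of genes by DESeq2.

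Against the cell line, the numbers called were 1 in orthotopic tumours (Epas1; 3.2% of genes), 2 in subcutaneous tumours (Epas1 and Gapdh; 9.49%) and 3 in intestinal tumours (Pfkfb4, by 4.92, Epas1 and Hif1a; 15.2%). With Gapdh counted together with its copies, 4 passed in intestinal tumours. The Pfkfb4 difference in intestinal tumours passed in 1 of 3 fits that left out a library, the one without intestinal tumour 3. In ascites 0 members passed (6.2% of genes), with 5 members and 22.7% of genes at an unadjusted p under 0.05 and 6 members and 19.7% by DESeq2. Orthotopic tumours differed from healthy ovary at 0 members (0.6% of genes), with 2 members and 11.2% of genes at an unadjusted p under 0.05 and 1 member and 3.75% of genes by DESeq2. There the members' median log2 fold change was 1.03 and that of all genes −0.07, and 27 of 35 members were above 0. In these comparisons the spread of the single library is assumed to be that of the replicated groups.

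Other genes of the pathways, listed by function, comprised 27 of glucose metabolism and 25 of the hypoxia response, and all 52 were tested. In the joint test by site, 11 of the 27 and 2 of the 25 passed, where 17% of all genes did. Those with the smallest p included Fbp2, Pklr, Slc2a2, Hkdc1, Fbp1, Stc2 and Slc2a5. Several of these are isoforms of liver, kidney and gut, such as the fructose carrier GLUT5 (Slc2a5) and fructose bisphosphatase 1 (Fbp1), a gluconeogenic enzyme. In intestinal against orthotopic tumours 9 of the 27 were higher and 0 lower (10.4% and 5.13% of all genes), among them Fbp2 (111 against 0.0568 CPM, log2 fold change 10.83 ± 1.43, adjusted p = 0.000905). Of the 25 hypoxia genes 6 were lower and 0 higher, among them Vhl, which targets the HIF alpha subunits for degradation (16.1 against 36.0 CPM, −1.16 ± 0.27, adjusted p = 0.0153), and Arnt2, a HIF partner (8.35 against 105, −3.65 ± 0.89, 0.0194). Intestinal tumours against both taps gave 13 of 52 higher (12.4% of all genes), again with Fbp2 among them, and 1 lower (5.85%), Hk3.

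Ascites was higher than orthotopic tumours at Hk3, the hexokinase of myeloid cells (29.2 against 1.26 CPM, 4.51 ± 0.77, adjusted p = 0.0101), beside the macrophage marker levels given above. It was lower at Stc2, a secreted glycoprotein (0.667 against 22.1, −5.04 ± 0.68, 0.00327), and at Pck1, a gluconeogenic enzyme of liver, kidney and fat (0.276 against 50.7, −7.50 ± 1.65, 0.0267). Pck1 was at 27.7, 119 and 5.08 CPM in the 3 orthotopic tumours and at most 0.918 in ascites. Subcutaneous tumours were higher than ascites at 5 of the 52 and lower at 0, where 6.32% of all genes differed in either direction. Stc2 (34.9 CPM, 5.71 ± 0.72, adjusted p = 0.00146) and the insulin-responsive carrier gene Slc2a4 of muscle and fat (91.2 against 0.284 CPM, 8.32 ± 1.32, 0.00424) had the smallest p, beside the adipocyte level of 9.21 in subcutaneous library 2. Slc2a4 was at 180 CPM in that library and 2.16 in subcutaneous library 3, and without library 2 its difference was 3.01 and did not pass (adjusted p = 0.235); Stc2, at 52.3 and 17.6, still passed (4.78, 0.0117). Against the line, Hif3a, which had 0 counts there, was at least 86.2-fold higher in orthotopic tumours, 40.4-fold in subcutaneous tumours, 50.8-fold in ascites and 193-fold in intestinal tumours, taking the line at a floor of 3 counts. Lox, a collagen crosslinking enzyme, was lower in ascites than in the line (22.2 against 283 CPM, −3.68 ± 0.86, adjusted p = 0.0284). Mif and Pck2 were lower in subcutaneous (−2.94 ± 0.78 and −1.86 ± 0.51) and intestinal tumours (−2.93 ± 0.69 and −2.04 ± 0.46) than in the line, with adjusted p from 0.0165 to 0.0415.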

How the data were processed

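The authors deposited raw read counts per gene for each library (total RNA, Trizol extraction, directional libraries, per the labels' protocols). HISAT, HISAT2, featureCounts and DESeq2, and the builds hg19 and mm39, are named per the submitters' processing notes; roles, versions and the annotation are not given in the sources used here. Of the deposited sample columns, 1 matched no sample and was not used. Genes above 0.5 CPM in at least 2 libraries (22671) were fitted with edgeR 4.0.16 (R 4.3.3, TMM, robust quasi-likelihood test, 17 libraries in 8 groups, 9 residual degrees of freedom). Adjustment was Benjamini-Hochberg over all genes, with a threshold of 0.05. The code was run on simulated counts with changes in ascites alone and a spread set in advance. That run does not show how the test performs at the spread of these members. DESeq2 1.42.0, library-total scaling, no filter, the 14 replicated libraries alone, a replicate block and each library left out were alternatives. Levels over a list are means of log2(CPM + 1). Copies of members were found by matching each member's longest coding sequence to GENCODE M21 transcripts. The members and lists were chosen with earlier results of these data known. Named genes are all members and, of the 52 other pathway genes, up to 8 with the smallest joint p and up to 2 per direction in each comparison; 1 gene that this rule names is not reported here. Counts give no interval of their own here; totals of 12031221 to 38902048 limit mainly the rare transcripts Adm and Ankrd37.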

Additional observations from a re-analysis of the deposited data

How the results depend on the processing

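No member called by edgeR changed direction under any alternative run. Except for DESeq2, counts of called members in alternative fits, here and above, come without the share of all genes called in the same fit. A change in such a count is therefore not a result about the members. DESeq2 called more members and also a larger share of all genes. In members, with percent of all genes in brackets, the joint test gave 10 (35.8%). Ascites against orthotopic gave 4 (15.6%), subcutaneous against orthotopic 2 (10.1%) and intestinal against orthotopic 8 (26.2%). Intestinal against ascites gave 7 (26.6%), subcutaneous against ascites 5 (13.2%) and intestinal against subcutaneous 5 (14.5%). Orthotopic, subcutaneous, ascites and intestinal against the line gave 5 (18.4%), 9 (26.6%), 6 (19.7%) and 6 (30%). Orthotopic tumour against ovary gave 1 (3.75%). Library-total scaling left 1 call for subcutaneous tumours against the line, and no filter on low counts gave 3 for intestinal against orthotopic and 2 for subcutaneous against ascites. Library-total scaling moved the median of all genes by −0.29 for intestinal against orthotopic, −0.25 for intestinal against ascites, −0.40 for intestinal against subcutaneous, 0.14 for subcutaneous against ascites, 0.14, 0.25 and −0.18 for orthotopic, subcutaneous and intestinal against the line, and 0.16 for intestinal tumours against intestine. Chosen after seeing the data, the prefix covariate gave 1 call for ascites against the line, and SM libraries alone gave 0, 2 and 0 calls for ascites against orthotopic, intestinal against orthotopic and intestinal against ascites. Without the 3 libraries with the most genes detected (subcutaneous 3, first-tap 3, second-tap 1) there were 1, 2 and 1 calls for subcutaneous against orthotopic, subcutaneous against ascites and intestinal against subcutaneous. The joint test gave 0 without intestinal tumours and 5 without subcutaneous tumours. With Gapdh summed with its copies, subcutaneous tumours against ascites gave 2 and intestinal tumours against the line 4.

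Leaving out each library in turn gave 1 to 7 calls in the joint test, 0 to 2 for ascites against orthotopic, 1 to 7 for intestinal against orthotopic (1 without intestinal tumour 2), 1 to 7 for intestinal against ascites (1 without intestinal tumour 2), 0 to 3 for subcutaneous against ascites (0 without subcutaneous 2), 0 to 1, 1 to 2, 0 to 1 and 1 to 4 for orthotopic, subcutaneous, ascites and intestinal against the line, and 0 to 0 in the other comparisons. A group left with 1 library was assumed to vary like the others. Pairing by replicate number could not be decided. Of 26 same-number pairs of libraries 6 had a correlation of deviations over 0.1 (−0.56 to 0.44), and 7 of 14 libraries correlated best with their own number. The rate to be had without pairing was not computed. The S library is also number 1 in the orthotopic, first-tap and intestinal groups and number 2 in the second tap, which mixes prefix with number. With the replicate block, the joint test called 3 members, intestinal against orthotopic 4, intestinal against ascites 5, ascites against orthotopic 1 and subcutaneous against ascites 1; P4ha1 in the joint test (adjusted p = 0.0641) and Pfkp against orthotopic (0.0573) no longer passed.

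With a pseudocount of 5 CPM, the enzyme minus hypoxia-only level of the second tap was 1.85 (1.75 as a median over members), the log2 ratio of Pfkp to Pfkl there was −1.12, and that of Aldoa to Aldoc was 5.82 in orthotopic, 6.02 in subcutaneous, 6.23 in first-tap, 5.94 in second-tap (6.99 with 0.25) and 5.57 in healthy intestine libraries. The cause of these shifts is the pseudocount itself for low genes such as Aldoc; for the other settings the cause was not tested. Depth limits Adm and Ankrd37 most.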
